A study of Mus musculus with 40 samples.

Results

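The genes described here were 10 regulators of early mouse development: Cited2, Gata4, Sox17, Mixl1, Cdx2, Hoxa5, Hoxb2, Hoxb5, Lefty1 and Klf2. They were chosen by name, as every spot whose only gene symbol, in the platform annotation or its current form, was one of them. Each of the 10 genes had 1 spot, so the group held 10 of the 5760 spots on the filter and 10 of the 3420 spots that carried exactly 1 gene symbol.

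Embryonic stem (ES) cells keep their undifferentiated state in the presence of leukaemia inhibitory factor (LIF), and leave it when LIF is withdrawn. As lineages form, transcription factors such as Cdx2, Gata4, Sox17 and Mixl1 mark trophectoderm, endoderm and the primitive streak, while Hox genes give cells a position along the body axis. Several of these genes also keep a role in adult cells, for example Gata4 in heart muscle and Klf2 in endothelium and lymphocytes.

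RNA from 40 samples was hybridised, 1 sample per filter, and the samples formed 14 groups. ZIN40 ES cells were grown without LIF (3 samples) or with LIF (3 samples). Among macrophages there were peritoneal cells kept adherent for 24 h (3 samples) and the lines Raw 264 (3) and J774 (2). Inguinal white fat gave the adherent stroma-vascular cells at 24 h after plating (3) and collagenase-isolated adipocytes (3). Whole liver (2) and tibialis muscle (2) were the other tissues. C2C12 cells were sampled after 7 days in differentiation medium, called myotubes here (2), and while proliferating, called myoblasts here (3). 3T3-F442A cells were differentiated for 7 days with rosiglitazone (3). The mesenchymal stem line C3H-10T1/2 (3) and 4 preadipocyte lines (3T3-L1 with 2 samples, 3T3-F442A, Ob1774 and Hgfu with 1 each) were sampled while proliferating. The labels give no strain, age or sex of the animals. Nothing in them ties replicates to separate cultures or animals. The spread that the p-values rest on may therefore be technical in most groups. In the preadipocyte group the replicates were 4 different lines, so its spread also held differences between lines. The fit of all groups pooled that spread into every test.

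The labels of the differentiated groups were checked against marker genes. The highest group mean fell in liver for 5 of 6 liver markers, and in tibialis muscle or C2C12 myotubes for 7 of 7 skeletal muscle markers. It fell in peritoneal macrophages, Raw 264 or J774 for 4 of 4 macrophage markers, and in tissue or 3T3-F442A adipocytes for 4 of 5 adipocyte markers. Of these, 4, 7, 4 and 4 also differed among groups (limma F test, adjusted p under 0.05). Groups that shared a marker list were not each checked alone. No gene of a 35-gene pluripotency list had a named spot, so the ES label could not be checked in this way. Array medians ran from 18871 to 132228 intensity units over 37 arrays. The 3 arrays of ES cells without LIF held values on another scale, with decimals throughout, made by a step the sources do not name: their medians were 941, 7813 and 42938, and the ratio of their 99th percentile to the median was 60.0 to 391, where the remaining 37 arrays had 3.87 to 17.5. They were left out of the fit and are described separately by rank.

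Each level below is a log2 level, the log2 of the quantile-normalised intensity plus an offset of 38423.2, which narrows differences of dim spots. A percentile is the rank of a spot among the 5760 spots of its own array. Brightness depends on the spotted clone as well as on the transcript, so percentiles of different genes were not set against each other.

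In the fit of all 13 groups none of the 10 genes differed past the threshold of an adjusted p of 0.05 (limma moderated test, Benjamini-Hochberg adjustment over 5760 spots). In the F test over 13 groups 567 spots passed, which is 9.84 percent of all spots, and 0 of the 10 genes. At an unadjusted p under 0.05, 2 of the 10 and 25.1 percent of all spots passed. Gata4 (adjusted p = 0.0750) and Cited2 (adjusted p = 0.0783) came nearest. The other 8 had adjusted p-values of 0.369 to 0.810 in that test. Cited2 passed it without the 3T3-F442A array (adjusted p = 0.0290) or the Hgfu array (0.00685) of the preadipocyte lines, or without replicate 1 of C3H-10T1/2 (0.0479). Gata4 passed it without replicate 2 of 3T3-L1 (0.0495), replicate 1 of Raw 264 (0.0382), replicate 2 of the ES cells with LIF (0.0438) or replicate 1 of the 3T3-F442A adipocytes (0.0379). Leaving out any other single array let neither gene pass. The 3T3-F442A and Hgfu arrays held the highest and lowest Cited2 levels of the preadipocyte lines (18.56 and 16.88). Leaving out either therefore narrows the spread within that group. In each of the 10 comparisons between groups 0 of the 10 genes passed in the fit of all 13 groups. With only stroma-vascular cells and tissue adipocytes fitted, Cited2 passed (limma adjusted p = 0.00372). It also passed there with the replicate numbers as a block (adjusted p = 0.000765). The labels do not say that samples with the same number were pairs. The share of all spots that passed was 0.226 percent for ES cells with LIF against the mesenchymal and preadipocyte lines, 0.226 percent for ES cells with LIF against all other groups, 0.139 percent for 3T3-F442A adipocytes against preadipocyte lines and 0.156 percent for C2C12 myotubes against myoblasts. It was 0.104 percent for myoblasts against the mesenchymal and preadipocyte lines, 0.885 percent for tibialis muscle against myotubes and 1.68 percent for liver against tibialis muscle. It was 0.503 percent for stroma-vascular cells against tissue adipocytes, 0.434 percent for peritoneal macrophages against stroma-vascular cells and 2.73 percent for peritoneal macrophages against the macrophage lines. With such shares, a count of 0 among 10 spots lies near the background.

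Of the 100 tests of these genes 10 had an unadjusted p under 0.05, which is 10 percent, against 8.71 percent over all spots. By comparison, 2 of the 10 genes were under it for peritoneal macrophages against stroma-vascular cells (5.16 percent of all spots), for C2C12 myotubes against myoblasts (9.5 percent) and for tibialis muscle against myotubes (8.8 percent). It was 1 gene for stroma-vascular cells against tissue adipocytes (8.51 percent), for liver against tibialis muscle (14.6 percent), for peritoneal macrophages against the macrophage lines (14.1 percent) and for ES cells with LIF against the mesenchymal and preadipocyte lines (4.58 percent). It was 0 for ES cells with LIF against all other groups (4.64 percent), for 3T3-F442A adipocytes against preadipocyte lines (9.62 percent) and for myoblasts against the mesenchymal and preadipocyte lines (7.53 percent). Several comparisons share a group, so these tests are not independent. Both ES comparisons (1.46 and 0.122 percent of all spots), the adipocyte comparison (8.44 percent), myoblasts against the other lines (1.58 percent) and peritoneal macrophages against the macrophage lines (11 percent) held 0 of the 10 genes whose groups did not overlap.

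**Figure D1:**
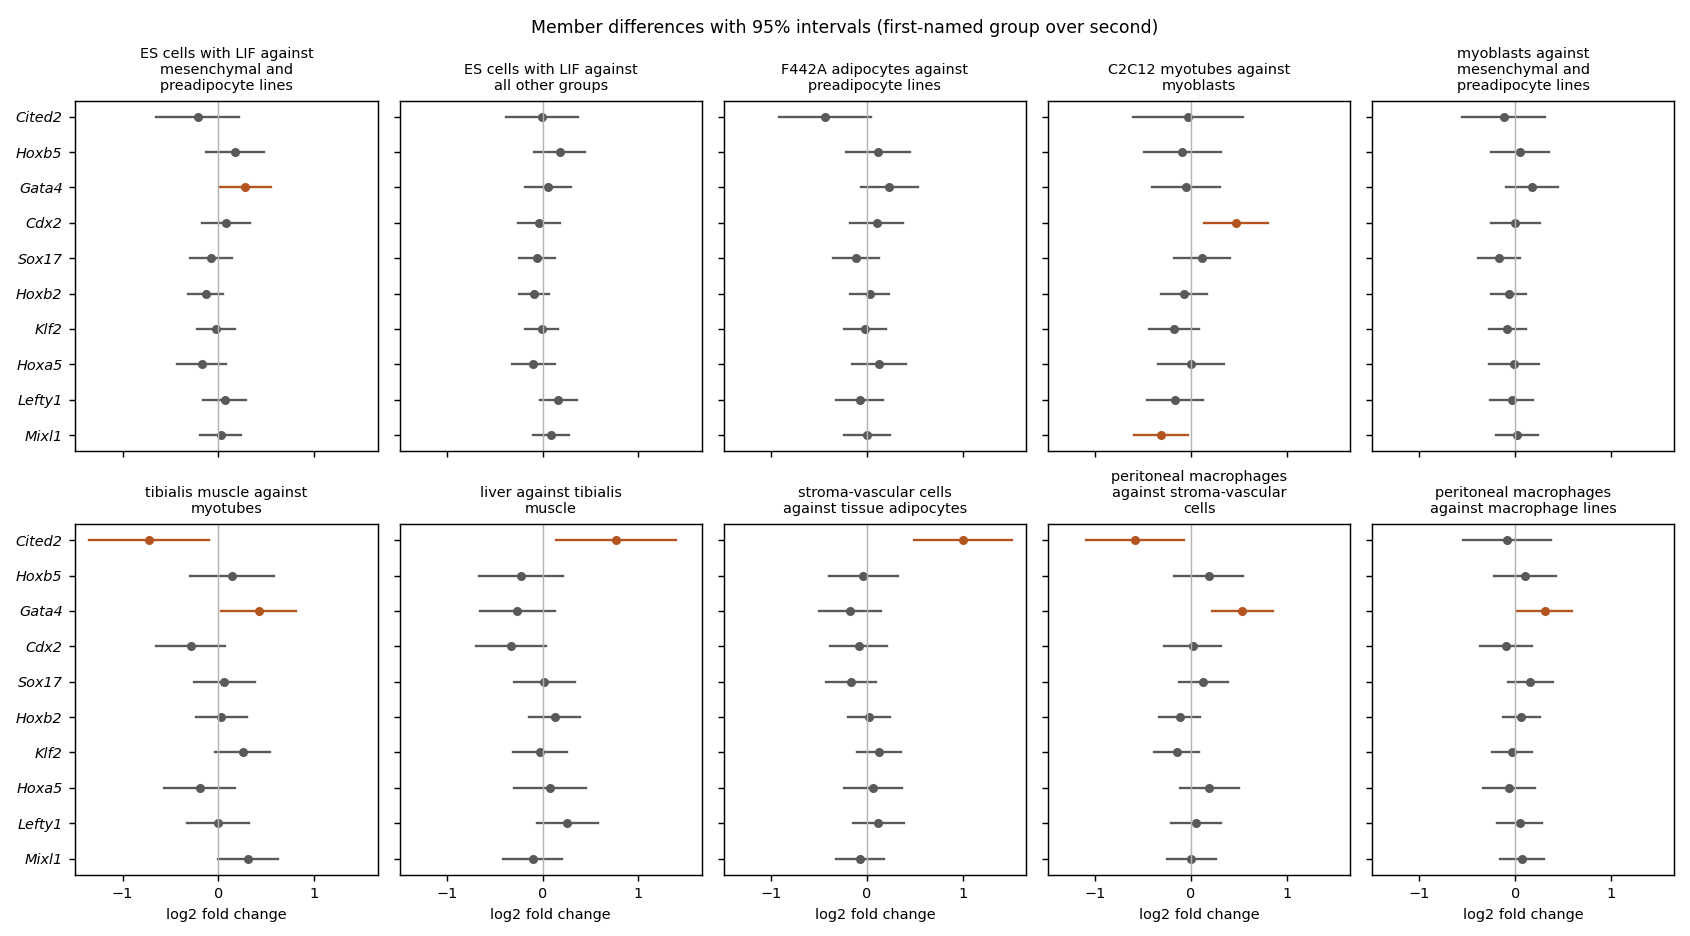
Log2 fold change of each gene (points) with its 95% interval (lines) in the 10 comparisons, the group named first over the second. Orange marks the 10 values with an unadjusted p under 0.05, of which 4 belong to Cited2 and 4 to Gata4, and none passed the adjusted threshold in this fit of all 13 groups.

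The spread between group means was set beside the spread within groups. The median over the 10 genes was 0.11 log2 units for the SD of the 13 group means and 0.17 for the SD within groups, against 0.12 and 0.16 over all spots. The median share of the variance lying between groups was 39.4 percent for the 10 genes and 42.5 percent over all spots, where the number of groups alone gives 34.3 percent. Cited2 had the widest spread of the 10 on both measures, 0.32 between groups and 0.34 within. Gata4 was next between groups, with 0.20, and had 0.20 within.

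**Figure D2:**
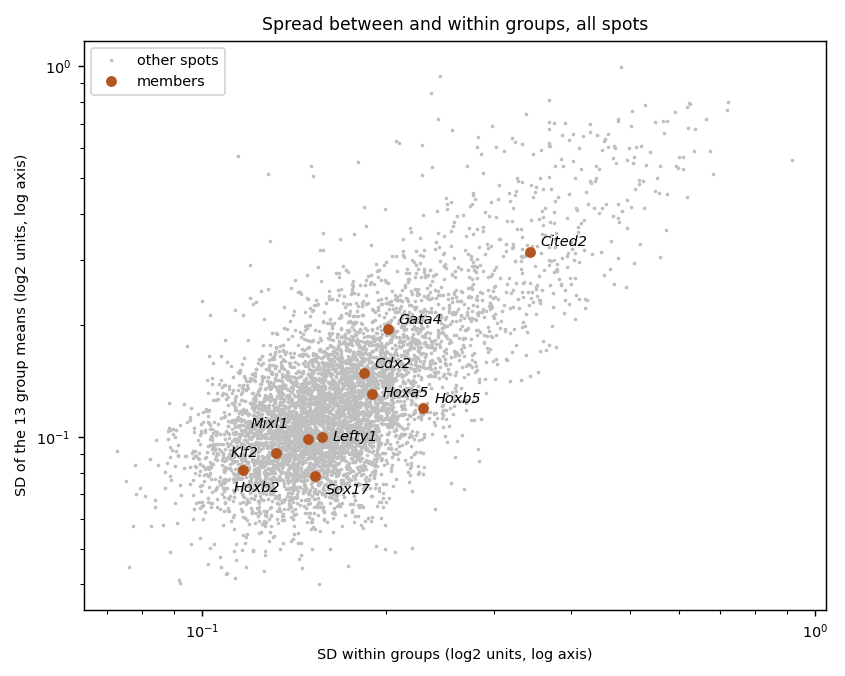
SD of the 13 group means (vertical, log axis) against the SD within groups (horizontal, log axis), both in log2 units, for all spots (grey) and the 10 genes (orange). Cited2 lies at 0.34 within and 0.32 between groups, and the other 9 genes lie inside the main cloud.

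Cited2, a transcriptional coregulator that binds the acetyltransferases CBP and p300, restrains hypoxia-inducible factor 1 and is needed for heart development, was a bright spot nearly everywhere. It lay above the array median in 36 of 37 arrays and above the 75th percentile in 35, with a median percentile of 91.4 and a range of 37.1 to 95.3. Because the results turn on this gene, the 250 bases upstream of its RefSeq start are shown (GRCm38.p6, chr10:17722978-17723227, + strand, written in the direction of transcription), with GC boxes, the letters GGGCGG or CCGCCC, in capitals.
Cited2: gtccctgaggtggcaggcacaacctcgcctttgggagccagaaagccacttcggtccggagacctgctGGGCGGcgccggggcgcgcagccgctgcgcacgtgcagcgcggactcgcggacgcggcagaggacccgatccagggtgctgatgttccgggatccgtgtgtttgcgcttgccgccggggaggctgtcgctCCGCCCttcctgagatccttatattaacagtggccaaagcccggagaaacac
This window was 66.8 percent G and C and held 26 CpG and 2 GC boxes, where the median of all 32851 windows of this length was 52.4 percent and 6 CpG. GC boxes stood in 32.7 percent of all windows. No CCAAT box (CCAAT or ATTGG, in 33.8 percent of all windows) and no TATAAA or TTTATA (in 12.4 percent) was found on either strand. A high G and C content was not particular to Cited2. The Klf2 window had 71.2 percent, 29 CpG and 2 GC boxes, and that of Hoxa5 63.6 percent, 28 CpG and 0 GC boxes. Cdx2 had 55.2 percent, 13 CpG and 0 GC boxes.

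Cited2 was highest in cultured fat stroma and lowest in tibialis muscle. Group means were 17.89 ± 0.18 in stroma-vascular cells (SD, n = 3), 17.69 ± 0.69 in the preadipocyte lines (n = 4) and 17.60 ± 0.40 in Raw 264 cells (n = 3). At the low end they were 16.88 ± 0.25 in tissue adipocytes (n = 3) and 16.68 ± 0.35 in tibialis muscle (n = 2). The other 8 groups lay between 17.19 (J774) and 17.44 (liver, and C2C12 myoblasts). In this order every group overlapped the next lower one in its single values, so no pair of neighbours stood apart.

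**Figure D3:**
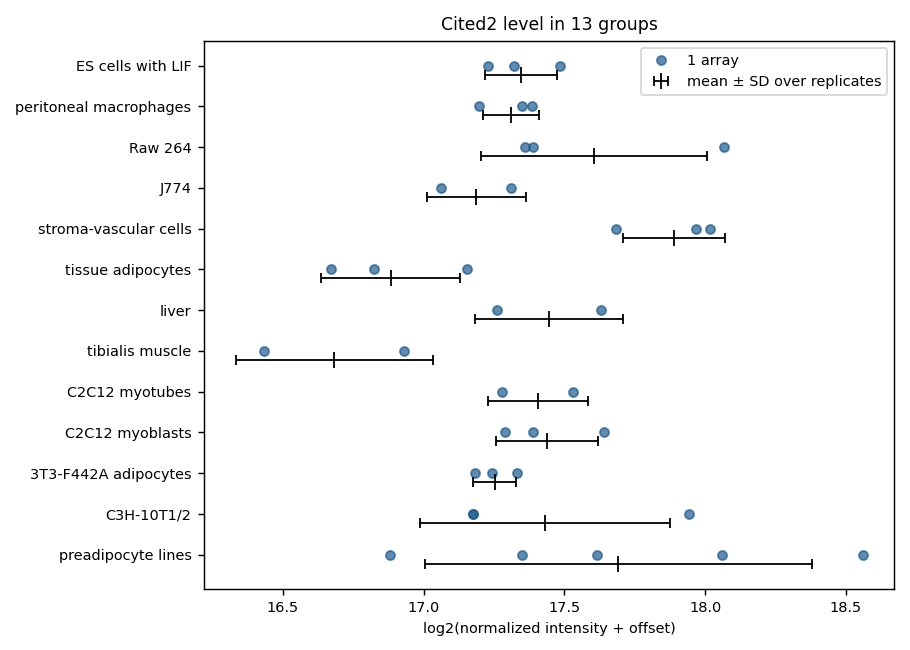
Cited2 log2 level (horizontal) in each array (points) of 13 groups, with the mean and SD over replicates (black; the 2 arrays of 3T3-L1 count as 1 replicate). The 3 stroma-vascular arrays lie at 17.68 to 18.02, right of the 3 tissue adipocyte arrays at 16.67 to 17.15.

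Within inguinal fat, Cited2 levels were 17.97, 18.02 and 17.68 in the stroma-vascular cells, against 16.67, 17.15 and 16.82 in the isolated adipocytes. All 3 stroma-vascular arrays lay above all 3 adipocyte arrays, at percentiles of 93.9, 94.0 and 93.2 in stroma-vascular cells and 68.6, 89.5 and 79.7 in adipocytes. The log2 fold change was 1.01 ± 0.25 (SE; 95% interval 0.49 to 1.52), with an unadjusted p of 0.000357 and an adjusted p of 0.0583 (limma), rank 33 of 5760. That SE pooled the spread of all 13 groups, among them the 4 preadipocyte lines with an SD of 0.69. Groups did not overlap for 3 of the 10 genes here (Cited2, Sox17 and Klf2), against 20 percent of all spots. With only these groups fitted the adjusted p was 0.00372. Samples with the same number in these groups had correlations of 0.103 to 0.378, the lowest just over the cutoff of 0.1 for pairs. The labels do not call them pairs, so the pairing was taken from these same data. With the number as a block as well the adjusted p was 0.000765, with 247 spots called in place of 29. Over 18 alternatives the limma adjusted p of Cited2 was 0.000765 to 0.873. In whole samples like these, fewer cells of a type and less RNA per cell cannot be told apart. Of these groups only the stroma-vascular one has a culture time in its labels, so culture and cell type differed together. The part of culture in the Cited2 difference was not tested.

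Marker genes of the cell types that these samples could hold were read in the same comparison. All 5 adipocyte markers had negative values, and 2 of them passed the test: Retn, the hormone resistin (-0.87, adjusted p = 0.00154), and Pnpla2, a triglyceride lipase (-0.62, adjusted p = 0.00426). The summed intensity of the 5 adipocyte markers was 374000 to 470000 in stroma-vascular cells and 527000 to 762000 in adipocytes. The 2 endothelial markers summed to 117000 to 158000 in stroma-vascular cells and 85800 to 103000 in adipocytes (Cdh5 0.44, adjusted p = 0.215; Eng 0.28, adjusted p = 0.577). The 4 macrophage markers summed to 264000 to 299000 in stroma-vascular cells and 248000 to 280000 in adipocytes, and none passed. The erythroid marker Hbb-b1 gave 0.25 (adjusted p = 0.886). The lowest intensity in the 37 arrays before normalisation was 7675, so no marker could read 0. The sums are of normalised intensities, whose 10th percentile was 38423.2 for a single spot. The 4 macrophage markers summed to 201000 to 232000 even in ES cells with LIF. Signal of a marker therefore does not by itself show that its cells were present. The part of these cell types in the Cited2 value was not tested.

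Cited2 in tibialis muscle rested on 2 arrays that differed, at levels of 16.93 and 16.43 and percentiles of 84.4 and 37.1. C2C12 myotubes had 17.53 and 17.28. The log2 fold change of tibialis muscle against myotubes was -0.72 ± 0.31 (95% interval -1.35 to -0.10; unadjusted p = 0.0252, adjusted p = 0.423). Liver had 17.63 and 17.26, and liver against tibialis muscle gave 0.76 ± 0.31 (95% interval 0.14 to 1.39; unadjusted p = 0.0187, adjusted p = 0.227). The tibialis arrays were bright before normalisation, with medians of 94790 and 130888, against 28300.5 and 62749 for myotubes. Liver medians were 32480 and 18870.5, and the part of array brightness was not tested. Groups of 2 arrays did not overlap for 7 of the 10 genes in tibialis muscle against myotubes (40.5 percent of all spots) and for 4 in liver against tibialis muscle (45.6 percent).

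Among macrophages, Cited2 had 17.38, 17.35 and 17.20 in peritoneal cells, against 17.97, 18.02 and 17.68 in the stroma-vascular cells, which are also primary adherent cells kept for 24 h. The log2 fold change was -0.58 ± 0.25 (unadjusted p = 0.0277, adjusted p = 0.786). Against Raw 264 and J774 together the peritoneal cells gave -0.09, with a 95% interval of -0.55 to 0.37.

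Cited2 spread widely over the preadipocyte lines. Differentiated 3T3-F442A adipocytes had 17.33, 17.24 and 17.18. The proliferating lines had 18.56 (3T3-F442A), 18.06 and 17.35 (the arrays of 3T3-L1), 17.62 (Ob1774) and 16.88 (Hgfu). The adipocytes lay below the 1 array of their own undifferentiated line, a difference with no replicate check. Against all 4 lines the log2 fold change was -0.44 ± 0.23 (95% interval -0.92 to 0.04; adjusted p = 0.574).

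Gata4, a zinc-finger factor of heart and endoderm, had its highest group means in muscle tissue and primary macrophages. They were 17.13 ± 0.03 in tibialis muscle (SD, n = 2) and 17.12 ± 0.12 in peritoneal macrophages (n = 3). The lowest were 16.58 ± 0.21 in stroma-vascular cells (n = 3) and 16.42 ± 0.20 in C3H-10T1/2 cells (n = 3). In C3H-10T1/2 the 3 arrays placed it at percentiles of 12.2, 65.2 and 26.8, while 34 of 37 arrays placed it above the median. Neighbours in the order of levels overlapped throughout.

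Peritoneal macrophages had Gata4 levels of 17.11, 17.00 and 17.24, against 16.34, 16.71 and 16.69 in stroma-vascular cells. Those groups did not overlap, and the percentiles were 88.8, 86.4 and 90.6 in macrophages and 22.7, 72.3 and 70.1 in stroma-vascular cells. The log2 fold change was 0.54 ± 0.16 (95% interval 0.22 to 0.86; unadjusted p = 0.00177, adjusted p = 0.245). Groups did not overlap for 4 of the 10 genes in this comparison (Gata4, Cited2, Sox17 and Klf2), against 15.1 percent of all spots. In 3 further comparisons Gata4 had an unadjusted p under 0.05. These were peritoneal macrophages against the macrophage lines (0.31, adjusted p = 0.314), tibialis muscle against myotubes (0.42, adjusted p = 0.498) and ES cells with LIF against the mesenchymal and preadipocyte lines (0.28, adjusted p = 0.999).

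Sox17, an HMG-box factor of definitive endoderm, stayed near the middle of the arrays. Its median percentile was 50.4, with 19 of 37 arrays above the median. Group means lay between 16.37 in C2C12 myoblasts and 16.65 in tissue adipocytes, a range of 0.29, and no comparison had an unadjusted p under 0.05. Stroma-vascular cells had 0.17 less than tissue adipocytes (log2 fold change -0.17, 95% interval -0.42 to 0.09), with no overlap of the 3 arrays of each. The lowest percentiles came from single arrays, 2.14 in replicate 3 of the ES cells with LIF and 6.35 in replicate 1 of J774.

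Mixl1, a homeobox factor of the primitive streak, was a dim spot. It lay above the array median in 1 of 37 arrays, at 67.8 in replicate 3 of the C2C12 myoblasts, and at or under the 25th percentile in 23. C2C12 myotubes had levels of 15.95 and 16.15, against 16.35, 16.07 and 16.66 in myoblasts. The log2 fold change was -0.31 ± 0.14 (unadjusted p = 0.0329, adjusted p = 0.467), and the groups overlapped. ES cells with LIF had 16.37 ± 0.12 (SD, n = 3), and their difference from all other groups was 0.09 (95% interval -0.10 to 0.28).

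Cdx2, a caudal-type homeobox factor of trophectoderm and later of the intestine, was above the array median in 29 of 37 arrays. Its highest group mean was 17.08 in C2C12 myotubes and its lowest 16.47 in liver, where the percentiles were 49.0 and 35.0. Myotubes had levels of 17.25 and 16.92, against 16.84, 16.44 and 16.55 in myoblasts, with no overlap. The log2 fold change was 0.47 ± 0.16 (95% interval 0.14 to 0.80; unadjusted p = 0.00686, adjusted p = 0.319). In that comparison groups did not overlap for 2 of the 10 genes (Cdx2 and Klf2), against 21.6 percent of all spots. Raw 264 cells showed how far single arrays could depart, with percentiles of 63.4, 91.0 and 67.7.

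None of the 3 Hox genes had a called difference in this fit. Hoxa5, which patterns the cervical and thoracic level and the lung, lay at or under the 25th percentile in 22 arrays and above the median in 7. Its lowest group means were 16.06 in tissue adipocytes, with percentiles of 0.243, 0.0347 and 15.7, and 16.13 in stroma-vascular cells, with percentiles of 5.70, 2.50 and 1.54. Thus 5 of the 6 arrays from inguinal fat placed it at or under 5.70, while the 3 arrays of 3T3-F442A adipocytes placed it at 29.1, 67.6 and 46.6. These groups were not compared by a test. Ranks as low were not particular to fat. Single arrays gave 1.25 and 0.972 in ES cells with LIF, 1.03 in liver and 0.938 in proliferating 3T3-F442A cells. Stroma-vascular cells against tissue adipocytes gave 0.07 (95% interval -0.24 to 0.37), and 3T3-F442A adipocytes against preadipocyte lines 0.13 (95% interval -0.16 to 0.41).

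Hoxb2, a gene of hindbrain segments, had group means between 16.33 in Raw 264 and 16.56 in 3T3-F442A adipocytes, the narrowest range of the 10 genes at 0.22. Hoxb5, which acts at the thoracic level and in the enteric nervous system, was above the median in 34 of 37 arrays, with group means between 16.60 in J774 and 16.98 in ES cells with LIF. ES cells with LIF had Hoxb5 0.18 above the mean of all other groups, with a 95% interval of -0.09 to 0.44. Neither gene had an unadjusted p under 0.05 in any of the 10 comparisons.

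Lefty1, a secreted inhibitor of Nodal signalling that is expressed in ES cells and on the left side of the embryo, showed no clear ES difference. Its highest group mean was 16.45 ± 0.23 in ES cells with LIF (SD, n = 3). Liver (16.44) and C3H-10T1/2 cells (16.41) lay within that spread. The 3 ES arrays had levels of 16.54, 16.62 and 16.19, at percentiles of 53.1, 63.1 and 6.72. Replicate 3 stood far below the others for Lefty1. Among the ES arrays with LIF it also gave the lowest percentiles of Hoxa5 (0.972, beside 1.25 in replicate 1), Sox17 (2.14) and Hoxb2 (8.09). The same held for Cdx2 (48.45) and Cited2 (90.5). For Klf2 it gave the highest (56.4), and for Gata4, Mixl1 and Hoxb5 the middle one. That array had the brightest median of the 37, and the part of this in its ranks was not tested. Lefty1 in ES cells with LIF was 0.16 above the mean of all other groups (95% interval -0.03 to 0.36; unadjusted p = 0.0974, adjusted p = 0.997). Against the mesenchymal and preadipocyte lines it was 0.06 higher (95% interval -0.16 to 0.29). Tissue adipocytes were lowest, at percentiles of 2.40, 1.46 and 8.66.

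Klf2, a zinc-finger factor that supports ES cell self-renewal and, in adults, endothelial and lymphocyte quiescence, gave no called difference in ES cells. ES cells with LIF had 16.32, 16.40 and 16.56, and the difference from all other groups was -0.01 with a 95% interval of -0.18 to 0.16. Its highest group mean was 16.59 ± 0.12 in stroma-vascular cells (SD, n = 3) and its lowest 16.21 ± 0.10 in C2C12 myotubes (n = 2). Myotubes had 16.14 and 16.27, against 16.34, 16.37 and 16.43 in myoblasts, with no overlap. That was the only break between neighbours in the order of levels among the 10 genes, and its log2 fold change was -0.17 (95% interval -0.43 to 0.09; adjusted p = 0.754).

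Withdrawal of LIF is described mainly by rank, since the scales differ. For all 10 genes the percentiles of ES cells without LIF overlapped those with LIF, where 7.95 percent of all spots lay wholly higher and 8.04 percent wholly lower without LIF. Gata4 had 90.5, 81.5 and 88.8 without LIF, against 68.2, 90.1 and 72.5 with LIF. Hoxa5 had 72.1, 41.6 and 22.5 without LIF, against 1.25, 50.4 and 0.972 with LIF. Cited2 had 90.8, 91.2 and 92.6 without LIF, against 92.4, 91.3 and 90.5 with LIF. With 3 arrays against 3, an exact permutation test cannot go below 0.1. A limma fit of all 40 arrays called 0 of the 10 genes and 0.0174 percent of all spots (8.33 percent at an unadjusted p under 0.05, and 0 of the 10 genes). Its smallest p among them was 0.0669 for Hoxa5 (log2 fold change 0.29, 95% interval -0.02 to 0.59, adjusted p = 0.639). The scale of the values and LIF cannot be told apart in these arrays.

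Related genes of the same pathways were counted in the same fit, 1 spot per gene. Measured were 10 genes of Nodal, TGF-beta and BMP signalling, 8 of mesendoderm, endoderm and heart, 9 Hox genes or Hox cofactors, 7 of Polycomb and trithorax, 4 KLF or SP factors, 3 CITED relatives or partners and 1 trophectoderm gene. Across the 10 comparisons 4 of these genes passed, in 5 of 420 tests, which is 1.19 percent, against 0.708 percent of the tests of all spots. Col4a1 is a basement membrane collagen that also marks parietal endoderm. It was 0.84 ± 0.15 higher in 3T3-F442A adipocytes, differentiated with rosiglitazone, than over the 4 proliferating preadipocyte lines (adjusted p = 0.00253). It was lower in peritoneal macrophages than in stroma-vascular cells (-0.82 ± 0.16, adjusted p = 0.00500). Bmp1, a procollagen protease, was lower in tibialis muscle than in myotubes (-0.71 ± 0.18, adjusted p = 0.0412). Liver against tibialis muscle gave a lower Pknox1, a Hox cofactor (-0.59 ± 0.15, adjusted p = 0.0318), and a higher Crebbp, the CBP acetyltransferase that Cited2 binds (0.55 ± 0.14, adjusted p = 0.0342). The Crebbp spot was dim, with a median percentile of 6.06, and that of Pknox1 was 25.1. Both calls, like that of Bmp1, rest on 2 arrays per group. In the F test over groups only Col4a1 of these 42 genes passed (adjusted p = 1.18e-06), which is 2.38 percent, against 9.84 percent of all spots.

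Median log2 fold changes of the 10 genes stayed between -0.06 (C2C12 myotubes against myoblasts) and 0.06 (peritoneal macrophages against the macrophage lines), where the medians of all spots lay between -0.02 and 0.01. The median SE of the 10 comparisons was 0.10 to 0.16 log2 units over all spots, and intervals of single genes were correspondingly wide. Differences within those intervals were not detectable with these numbers of arrays.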

How the data were processed

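Spot intensity was deposited by the authors for 5760 spots in 40 samples. Per the labels' protocols, Tripure-extracted, DNase-treated RNA was turned into 33P-labelled cDNA for Resgen filters, which Imagene read. Whether background was corrected or arrays scaled is not stated there. Per the deposited values, no array was identical to another.

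The 37 comparable arrays were quantile normalised, an offset (the 10th percentile, 38423.2) was added and log2 was taken. Both 3T3-L1 arrays were averaged, which left 36 replicates in 13 groups and 23 residual degrees of freedom. limma 3.58.1 (R 4.3.3) gave moderated F and contrast tests with Benjamini-Hochberg adjustment over all spots at 0.05, and the steps were tested on simulated data. The proliferating C2C12 samples, whose source name calls them preadipocytes, were grouped by title.

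All 10 genes are named; genes of pathway lists are named only where they passed, up to 4 per list and comparison. The members and lists were chosen with earlier results of these data known. Genes most like a member were to be named only for members past the F test, and none was. Gene symbols came from the platform annotation (98 spots had several symbols, 2242 none). Replicate numbers from the titles were taken as pairs only for stroma-vascular cells and tissue adipocytes, where every same-number correlation was over 0.1. Upstream sequences came from RefSeq (GRCm38.p6), which listed 4 of the 10 genes. Figures were drawn with matplotlib 3.10.9. Alternatives covered scaling, offset, background, dim spots, samples fitted, variance model, replicate block and leaving out each array.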

Additional observations from a re-analysis of the deposited data

How the results depend on the processing

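Under 16 to 47 alternatives per comparison, 21 of 2110 values of the 10 genes passed the threshold. Without scaling, the median of all spots moved by 1.04 in tibialis muscle against myotubes and -1.47 in liver against tibialis muscle. It moved by 0.66 in ES cells with LIF against the mesenchymal and preadipocyte lines. In that order 6, 9 and 2 of the 10 genes passed, beside 2916, 5672 and 965 of all 5760 spots. Such counts of the 10 genes lie near the background. Beside those shifts the signs turned for Lefty1 (1.09) in tibialis muscle against myotubes and for Sox17 (-1.46), Hoxa5 (-1.26), Hoxb2 (-1.34) and Lefty1 (-1.14) in liver against tibialis muscle. In the F test over groups 1 gene passed without scaling (Gata4, adjusted p = 0.0304), beside 1066 of all spots. It was 1 with all 40 arrays (Gata4, 0.0437), and leaving out single arrays gave 0 to 1. For stroma-vascular cells against tissue adipocytes 1 gene, Cited2, passed with a floor in place of the offset (adjusted p = 0.0443), with only the compared groups (0.00372) and with the replicate block as well (0.000765); over its 18 alternatives its log2 fold change was 0.60 to 1.81 and its adjusted p 0.000765 to 0.873. With the replicate block 1 gene, Cited2, also passed in tibialis muscle against myotubes (adjusted p = 0.00278), where the numbers were not taken as pairs (correlation 0.0958). The block called 0 of the 10 genes in the other comparisons that share numbers, ES cells without against with LIF included. No paired fit was possible for comparisons that include the preadipocyte lines or all groups, because those lines share fewer than 2 replicate numbers with the other groups (only the second 3T3-L1 sample carries one), and the membrane as a block was not run, since none is named. Leaving out each array in turn changed no count of the 10 genes in the 10 comparisons. Counts of called spots moved more. In the F test 567 spots passed, with 358 to 1066 under other settings. In the comparisons, 13 passed in the ES comparison with the mesenchymal and preadipocyte lines (4 to 965 under other settings, 3 to 21 without single arrays), 13 in that with all other groups (3 to 15 and 2 to 18), 8 in the adipocyte comparison (0 to 12 and 5 to 22), 9 for myotubes (0 to 18 and 3 to 125), 6 for myoblasts (1 to 15 and 2 to 8), 51 for tibialis muscle (7 to 2916 and 10 to 148), 97 for liver (2 to 5672 and 43 to 186), 29 for stroma-vascular cells (2 to 247 and 12 to 27), 25 for peritoneal macrophages against those (0 to 36 and 15 to 22) and 157 against the macrophage lines (5 to 187 and 40 to 166). Restricting to bright spots kept 3930 spots and 6 of the 10 genes. Subtracting a running median of neighbouring spots, chosen after seeing the data, called none of the 10 genes. The number of arrays, 2 or 3 in most groups, and values with no visible background subtraction limit the size of difference that could be detected.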
